A study of Homo sapiens with 8 samples.

Results

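The genes described here are CSPG4 and 9 other proteoglycan or proteoglycan-associated genes, CSPG5, SDC1, SDC2, SDC4, GPC1, GPC4, AGRN, HSPG2 and COL9A3, chosen by gene symbol among 58193 genes with matched transcripts. Of the 10 symbols, 9 were matched among the 18937 genes of the authors' deposited comparison tables, and SDC2 is described from the estimated counts alone. The genes were picked with results of these same libraries in view, and the comparison that led to the choice is not recorded, so all comparisons are treated as used: fold changes of these genes stand as a description with their errors, no p-value is given for them, and their counts of calls support nothing. All RNA came from HT29 cells, a long-established line grown from a human colorectal adenocarcinoma, and the labels name no transgene or deletion. There were 2 libraries for each of 4 treatments: vehicle (0.1% DMSO), ICG-001 (10 µM), CWP232228 (1.5 µM) and YB-0158 (0.3 µM), the last 3 called reverse-turn peptidomimetics in the series title. Exposure was 48 h by the labels, except that the second replicates of ICG-001 and of CWP232228 are labelled 49 h. Nothing in the labels shows that replicates are separate cultures, so p-values reflect only how these libraries vary, and that variation may be technical.

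Proteoglycans are core proteins that carry long sulfated sugar chains, chiefly heparan sulfate or chondroitin sulfate, which are built on serine residues in the Golgi. Syndecans span the plasma membrane and glypicans are tied to it by a lipid anchor, and through their heparan sulfate both present growth factors, Wnt proteins and morphogens to their receptors. Agrin and perlecan lie in basement membranes, where they connect laminin, collagen and cell surface receptors. CSPG4, also called NG2, is a large transmembrane chondroitin sulfate proteoglycan best known from pericytes, oligodendrocyte progenitors and melanoma, while syndecan-1 is the main syndecan of epithelia such as the colon.

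CSPG4 lies on the minus strand of chromosome 15 (75674322 to 75712848, GRCh38, GENCODE release 29), and SDC4 on the minus strand of chromosome 20 (45325288 to 45348424). The 250 bases before their RefSeq starts are shown because CSPG4 had the largest fold change of the group, and SDC4 the smallest among the members that lay below DMSO with all 3 compounds. They were copied from RefSeq's GRCh38.p14 table, for chr15:75712849-75713098 and chr20:45348425-45348674, and are written 5′ to 3′ on the gene's strand. Capitals mark every GGGCGG and its reverse complement, the GC box bound by SP1-type factors.
CSPG4: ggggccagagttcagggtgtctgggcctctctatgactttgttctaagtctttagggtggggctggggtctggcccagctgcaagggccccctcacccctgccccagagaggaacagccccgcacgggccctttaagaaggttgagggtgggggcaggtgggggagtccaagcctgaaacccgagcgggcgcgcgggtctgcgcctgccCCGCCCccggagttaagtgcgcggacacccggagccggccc
SDC4: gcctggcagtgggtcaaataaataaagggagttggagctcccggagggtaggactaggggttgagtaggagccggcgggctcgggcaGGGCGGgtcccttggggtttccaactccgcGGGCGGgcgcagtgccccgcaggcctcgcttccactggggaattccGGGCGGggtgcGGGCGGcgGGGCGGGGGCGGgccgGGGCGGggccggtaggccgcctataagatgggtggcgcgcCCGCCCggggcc
The CSPG4 window holds 1 such match in a sequence with 68.4% GC, and the SDC4 window holds 8 at 73.6% GC. Of 35116 promoter windows of this length, 42.6% hold at least 1 match, and their median GC content is 58%. Windows were given for 7 of the 10 genes, with 1 match before both RefSeq starts of SDC1, 4 matches before GPC1, 2 before GPC4 and 8 before HSPG2, and 3 before the downstream and 0 before the upstream start of CSPG5. On either strand, none of these windows holds TGATGNAAT, a form of the composite element read by ATF4 (in 0.889% of all windows), CACGTG, an E-box (6.34%), or TGACTCA, an AP-1 site (4.2%). ACGTG, a form of the core read by hypoxia-inducible factors, is in 18.5% of all windows and has 1 match before the downstream CSPG5 start, at chr3:47578866-47579115. Other forms of these elements were not searched. A match describes letters only and is no measured binding.

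Libraries held between 29071547 and 58489118 estimated reads, and the level that 3 counts would give, the limit for a gene without reads, was 0.0513 to 0.103 CPM by library (CPM is a count divided by the TMM-scaled library size; the limit covers counting error only). The DMSO libraries lay further apart than the others: replicates of DMSO differed with an SD of 0.30 on the log2 scale over 8568 genes, and those of the treated groups with an SD of 0.11 to 0.13. Fold changes against DMSO followed the GC content of the genes across all genes tested, with Spearman's rho at -0.42 (ICG-001), -0.57 (CWP232228) and -0.38 (YB-0158), where genes are not independent replicates. Differences between the 2 replicates of a group also followed GC content over the 8568 genes. Replicate 1 minus replicate 2 gave rho at -0.59 (DMSO), 0.78 (ICG-001), 0.58 (CWP232228) and 0.55 (YB-0158). Epithelial markers (10 of 10 tested, among them EPCAM, CDH1 and VIL1) summed to 14760 to 17140 CPM in DMSO and to 11000 to 13190 CPM in the treated libraries. Such a sum follows the most abundant genes. At an adjusted p under 0.05, 4 of the 10 were higher and 5 lower with ICG-001 (48.8% of all genes either way). With CWP232228 3 were higher and 5 lower (42.8%), and with YB-0158 4 and 6 (43.8%). Of the markers of cells known for CSPG4, 3 of 8 for pericytes and muscle were tested (RGS5, ACTA2 and NOTCH3). For glia and melanocytes 2 of 8 were (MBP and PMEL). The pericyte and muscle list summed to 2.68 to 4.0 CPM over all libraries, with KCNJ8 at 0 reads and PDGFRB at most 0.139 CPM. Among glial and melanocyte markers OLIG1, OLIG2 and PDGFRA had 0 reads and SOX10 and MLANA at most 0.0325 CPM. That last list summed to 37.2 to 45.6 CPM in DMSO and 48.8 to 56.5 CPM in the treated libraries, nearly all of it MBP. Fibroblast, endothelial and leukocyte markers summed to 4.31 to 6.25, 1.38 to 2.99 and 6.07 to 13.5 CPM, with COL1A2, EMCN, CD3E and MS4A1 at 0. The part of these markers in the results was not tested.

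Agrin was the most abundant of these mRNAs in HT29 and CSPG5 the least abundant of those detected. On the scale that corrects for transcript length (FPKM, from the authors' deposited tables), DMSO levels were 330.7 ± 6.15 for AGRN, 129 ± 5.11 for SDC1, 76 ± 18.2 for HSPG2, 60.8 ± 10.1 for COL9A3, 48.7 ± 1.97 for SDC4, 28.3 ± 3.05 for CSPG4, 17.4 ± 0.723 for GPC1, 8.99 ± 1.36 for GPC4 and 2.29 ± 0.357 for CSPG5 (mean ± SD, n = 2). HSPG2 and COL9A3 overlapped in DMSO, and no other neighbours in that order did. SDC2, the syndecan of mesenchymal cells on chromosome 8 (96493351 to 96611780), took 0 estimated reads in all 8 libraries.

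CSPG4 and COL9A3 changed places in this order. CSPG4 was the 6th of 9 genes in DMSO, above GPC1 and GPC4. It stood 8th with ICG-001, at 4.23 ± 0.0436 FPKM under GPC4 at 6.76 ± 0.491, and 8th with YB-0158, at 6.65 ± 0.0911 under GPC4 at 7.14 ± 0.267. With CWP232228 it stood 7th at 12.5 ± 0.11 FPKM, overlapping GPC1 at 13.6 ± 1.93. COL9A3 dropped below SDC4 in all 3 treated groups. AGRN, SDC1 and HSPG2 kept the 3 highest places in every group.

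**Figure D1:**
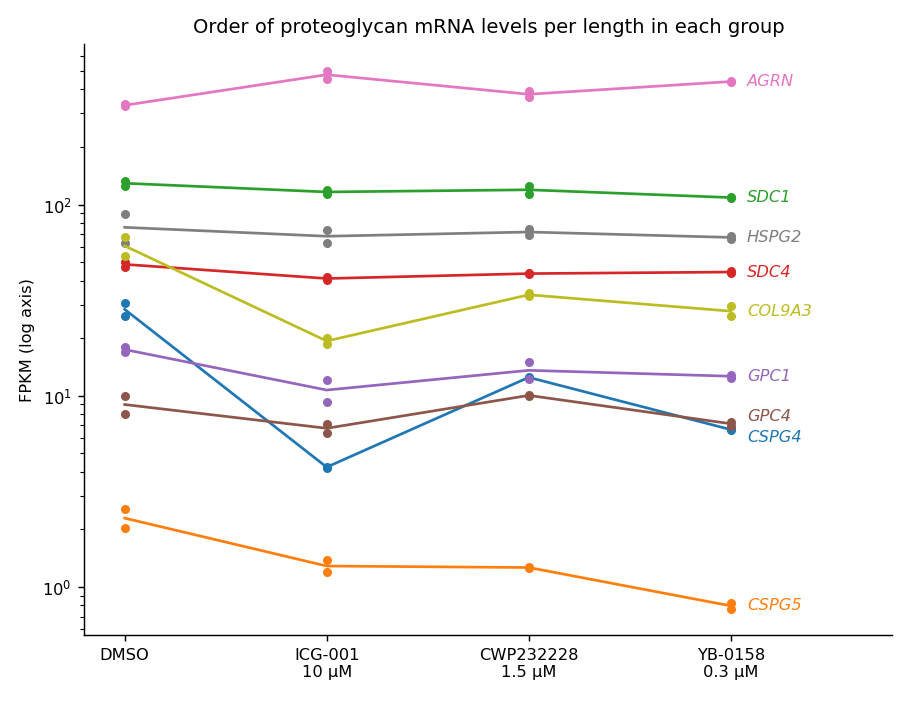
FPKM of 9 genes on a log axis in the 4 groups, with points for the 2 libraries of a group and lines joining the group means to follow each gene. CSPG4 starts above GPC1 and GPC4 in DMSO (28.3 FPKM) and ends below both with ICG-001 (4.23 FPKM) and YB-0158 (6.65 FPKM).

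CSPG4 mRNA was lower with every compound, by the widest margin of the group. Its level was 246 and 278 CPM in the 2 DMSO libraries, 37.6 and 38.8 with ICG-001, 113 and 112 with CWP232228, and 61.6 and 60.6 with YB-0158. All 6 treated libraries lay below both DMSO libraries, and the 3 treated groups did not overlap each other. The log2 fold change was -2.78 for ICG-001 (SE 0.08, 95% interval -2.96 to -2.59), a 6.85-fold lower level. It was -2.10 for YB-0158 (SE 0.08, interval -2.28 to -1.92), 4.29-fold lower, and -1.22 for CWP232228 (SE 0.08, interval -1.40 to -1.05), 2.33-fold lower. Among 11335 genes whose mean log2 CPM was 2 or more, 4 had a fold change this low or lower with ICG-001, 12 with YB-0158 and 34 with CWP232228, CSPG4 included. In the authors' deposited tables its log2 fold changes are -2.73, -2.08 and -1.16 for ICG-001, YB-0158 and CWP232228. CSPG4 has 1 annotated transcript in GENCODE 29, and the reads of its 8 annotated pseudogenes came to at most 0.711% of both together. In bulk RNA, fewer cells with a transcript and less of it per cell cannot be told apart, here and for every gene below.

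CSPG5, or neuroglycan C, a transmembrane chondroitin sulfate proteoglycan with an EGF-like domain that is chiefly made in brain, was present at a low level and was also lower with each compound. It measured 4.24 and 5.13 CPM in DMSO, 2.75 and 2.45 with ICG-001, 2.47 and 2.51 with CWP232228, and 1.67 and 1.56 with YB-0158. Every treated library was below both DMSO libraries, and those of YB-0158 were the lowest. The log2 fold change was -0.84 with ICG-001, -0.91 with CWP232228 and -1.53 with YB-0158 (SE 0.17 each), whose level was 34.5% of that in DMSO. The authors' deposited values for CSPG5 have larger errors: -0.67 (SE 0.31), -0.65 (SE 0.34) and -1.40 (SE 0.33) in the same order. Its summed reads over the 8 libraries were 831, which limits the precision of its levels. The gene lies on chromosome 3 (47562239 to 47580792, minus strand).

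COL9A3 encodes the alpha 3 chain of collagen IX, a fibril-associated collagen of cartilage that carries a chondroitin sulfate chain on a partner chain. Its level was 124 and 136 CPM in DMSO, 39.4 and 36.3 with ICG-001, 62.9 and 60.7 with CWP232228, and 54.9 and 54.6 with YB-0158. No treated library reached a DMSO library. ICG-001 gave a log2 fold change of -1.78, CWP232228 -1.07 and YB-0158 -1.24 (SE 0.08 each), or 29.2%, 47.6% and 42.2% of the DMSO level. With correction for GC content and length they were -1.29, -0.53 and -0.79. The authors' deposited values for COL9A3 are -1.63, -0.80 and -1.10 in the same order. Its partner chains were far lower in CPM, COL9A1 at no more than 0.139 and COL9A2 at 0.33 to 0.64 over all libraries. The gene lies on chromosome 20 (62816244 to 62841159, plus strand).

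**Figure D2:**
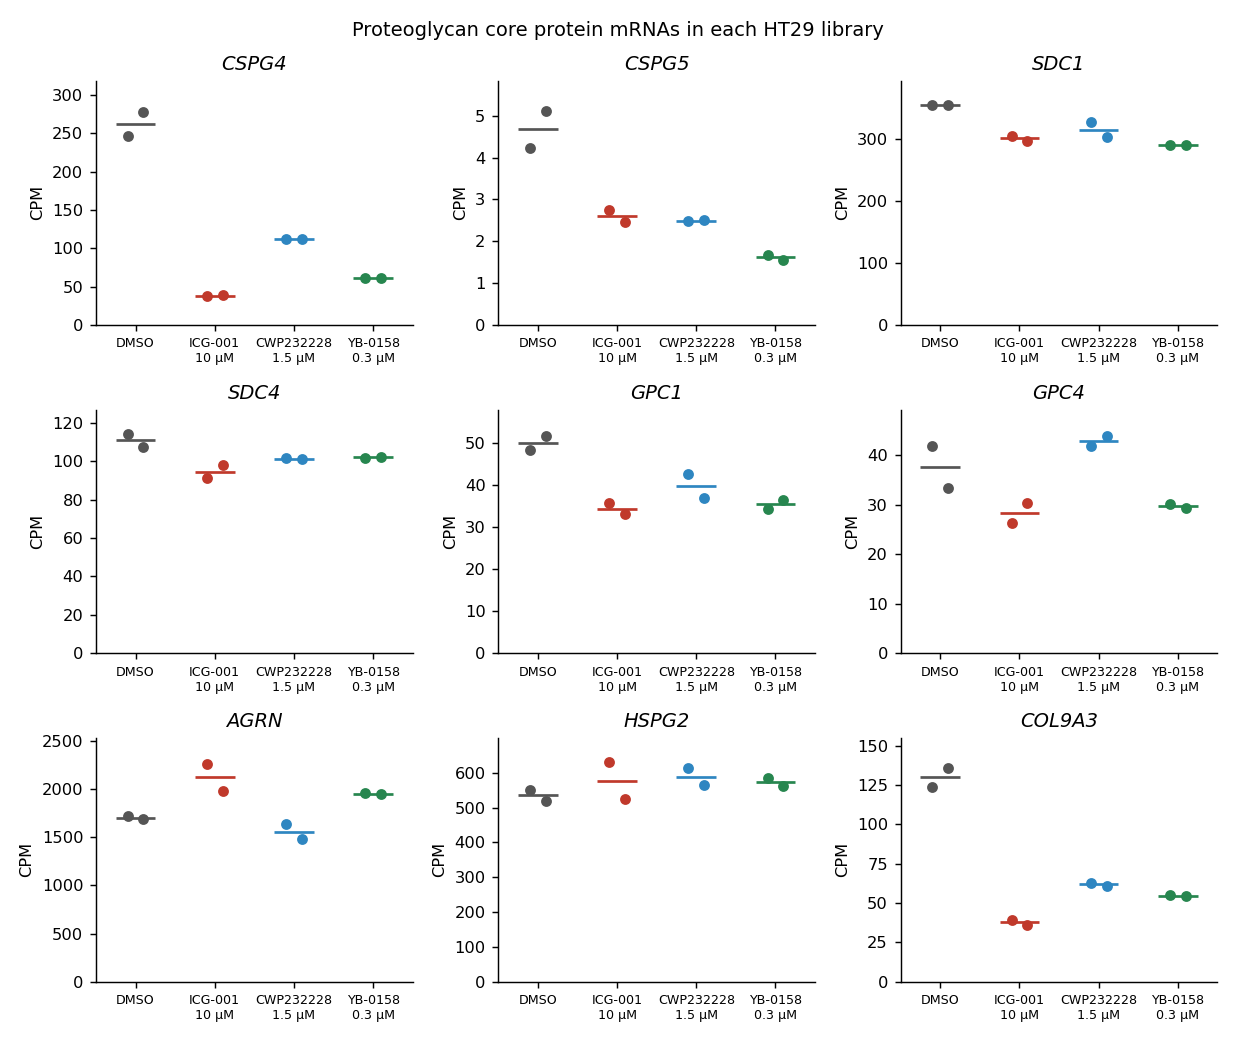
Level of 9 genes in CPM on axes that start at 0, with 1 point per library and a bar at the mean of the 2 libraries of each group. CSPG4, CSPG5 and COL9A3 lie lower in all 6 treated libraries, while SDC4 and HSPG2 stay close to their DMSO levels.

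Both syndecans detected among the members had small fold changes. SDC3, a syndecan outside the members, measured 10.7 and 11.5 CPM in DMSO. Without correction for GC content it was called higher with ICG-001 (0.35) and CWP232228 (0.29), but not with YB-0158 (0.23). SDC1, on chromosome 2 (20200797 to 20225433, minus strand), measured 354 and 355 CPM in DMSO, 305 and 297 with ICG-001, 328 and 303 with CWP232228, and 291 in both YB-0158 libraries. Its treated libraries all lay below DMSO, with log2 fold changes of -0.24, -0.17 and -0.29 in that order (SE 0.07 each). Correction for GC content and length brought these to 0.03, 0.15 and -0.04, so the direction for SDC1 flips with ICG-001 and CWP232228. SDC4, a widely expressed syndecan of focal adhesions, measured 114 and 107 CPM in DMSO, 91 and 98.1 with ICG-001, 101 in both CWP232228 libraries and 102 in both YB-0158 libraries. All treated libraries were lower than both DMSO libraries, with log2 fold changes of -0.23, -0.13 and -0.12 (SE 0.07 each). With the correction they were -0.40, -0.29 and -0.29. SDC1 has a GC content of 61.1% and SDC4 of 48.8%, against a median of 50.2% over the genes tested. The call of SDC1 with ICG-001 was lost without either ICG-001 replicate (-0.25 without replicate 1, -0.21 without replicate 2), and with YB-0158 without either YB-0158 replicate (-0.29 and -0.28). The call of SDC4 with ICG-001 was lost without any one library other than replicate 2 of DMSO, with values from -0.28 without replicate 2 of ICG-001 to -0.17 without replicate 1 of ICG-001.

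GPC1 and GPC4 lay on opposite sides of DMSO with CWP232228 on the CPM scale. GPC1, on chromosome 2 (240435671 to 240468078, plus strand), is a glypican of many epithelia and measured 48.3 and 51.7 CPM in DMSO, 35.7 and 33.0 with ICG-001, 42.5 and 37.0 with CWP232228, and 34.3 and 36.5 with YB-0158. All treated libraries were below DMSO, with log2 fold changes of -0.54 (SE 0.10), -0.33 (SE 0.10) and -0.50 (SE 0.10) in that order. With correction for GC content and length GPC1 stood at -0.18, 0.10 and -0.17, so its direction with CWP232228 flips. It was then not called with CWP232228 or YB-0158. GPC4, on chromosome X (133300103 to 133415490, minus strand), measured 41.9 and 33.4 CPM in DMSO, 26.3 and 30.3 with ICG-001, 41.9 and 43.9 with CWP232228, and 30.0 and 29.3 with YB-0158. Of its CWP232228 libraries 1 was level with the higher DMSO library and 1 above it, and those of the other compounds lay below both. Its log2 fold changes were -0.41, 0.19 and -0.34 in the same order (SE 0.12 each). For GPC4, with a GC content of 44.8%, the correction gave -0.92, -0.32 and -0.81, which turns the direction with CWP232228. Without replicate 1 of DMSO, GPC4 was not called with ICG-001 (-0.23) or YB-0158 (-0.16) and was called higher with CWP232228 (0.37). Its call with ICG-001 was also lost without replicate 1 of ICG-001 (-0.31), and its call with YB-0158 without any one library other than replicate 2 of DMSO (from -0.37 without replicate 1 of YB-0158 to -0.16). GPC1 with CWP232228 was not called without replicate 2 of DMSO (-0.30) or replicate 2 of CWP232228 (-0.23).

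The basement membrane proteoglycans AGRN and HSPG2 were the most abundant members besides SDC1, and neither was called lower. AGRN, on chromosome 1 (1020123 to 1056118, plus strand), encodes agrin, known for clustering acetylcholine receptors at the neuromuscular junction and also a component of epithelial basement membranes. It measured 1715 and 1691 CPM in DMSO, 2259 and 1980 with ICG-001, 1635 and 1480 with CWP232228, and 1954 and 1943 with YB-0158. The ICG-001 and YB-0158 libraries were above DMSO and the CWP232228 libraries below it. Log2 fold changes were 0.32 (SE 0.09), 0.19 (SE 0.09) and -0.13 (SE 0.09) for ICG-001, YB-0158 and CWP232228. With correction for GC content and length AGRN stood at 0.57, 0.41 and 0.20, and by FPKM at 0.53, 0.41 and 0.19, so AGRN lay below DMSO with CWP232228 in CPM and above it on both of these scales. Without replicate 1 of ICG-001 AGRN stood at 0.22 with that compound and was not called.

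HSPG2 encodes perlecan, which binds laminin and nidogen and carries heparan sulfate at one end. It lies on chromosome 1 (21822245 to 21937297, minus strand). Its level was 550 and 519 CPM in DMSO, 630 and 524 with ICG-001, 614 and 564 with CWP232228, and 586 and 560 with YB-0158. The ICG-001 libraries overlapped those of DMSO, and the others lay slightly above. Log2 fold changes of 0.11, 0.14 and 0.10 (SE 0.10 each, for ICG-001, CWP232228 and YB-0158) had intervals of -0.11 to 0.33, -0.08 to 0.36 and -0.12 to 0.32, and HSPG2 was not called. With correction for GC content and length HSPG2 stood at 0.09, 0.21 and 0.05, and was called higher with CWP232228. By FPKM its values were -0.14, -0.06 and -0.15, the opposite sign, and without replicate 1 of ICG-001 it stood at -0.025 with that compound. The FPKM of the DMSO libraries were 63.1 and 88.9, in the reverse order of their CPM.

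**Figure D3:**
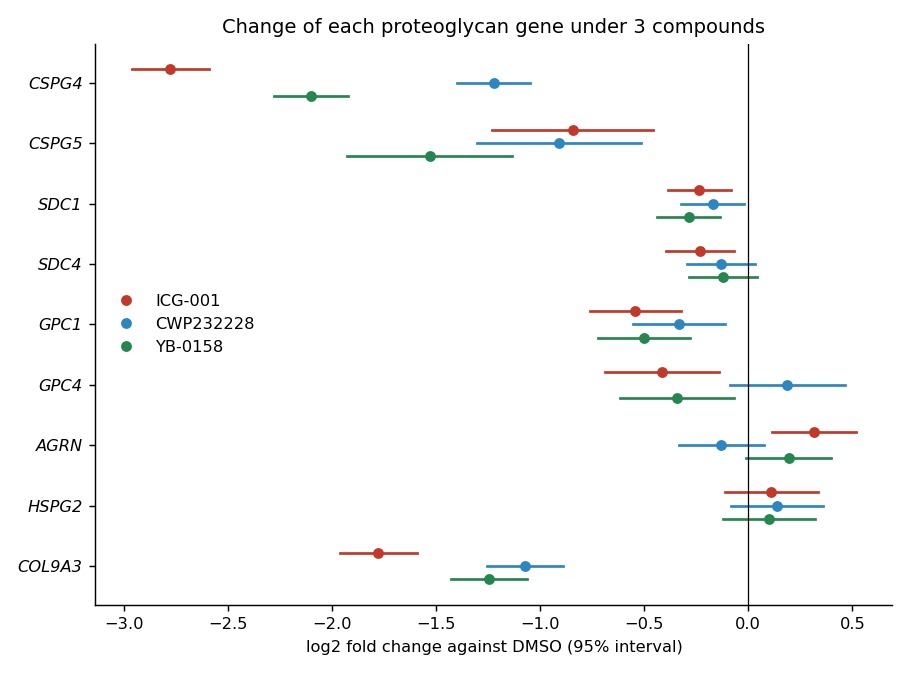
Log2 fold change against DMSO of 9 genes for ICG-001, CWP232228 and YB-0158, with points for estimates and lines for 95% intervals from edgeR's fit. CSPG4, CSPG5 and COL9A3 lie left of 0 with all 3 compounds, and the intervals of HSPG2 include 0 with each.

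In the fit across all genes (edgeR's quasi-likelihood test, Benjamini-Hochberg adjusted p under 0.05), 7 of the 9 tested members were called lower with ICG-001 and 1 higher, against 24% of all genes lower and 24.8% higher (48.8% either way). With CWP232228, 4 were called lower and 0 higher (5 lower and 0 higher at an unadjusted p under 0.05, and 5 and 0 by DESeq2), where 21.2% of all genes were lower and 21.6% higher (42.8% either way). With YB-0158, 6 were called lower and 0 higher (6 and 0 unadjusted, and 6 and 0 by DESeq2), where 22.1% of all genes were lower and 21.7% higher (43.8% either way). The median log2 fold change of the 9 was -0.41, -0.17 and -0.34 for ICG-001, CWP232228 and YB-0158, beside medians of 0.03, 0.04 and 0.02 over all 16449 genes tested. Their libraries did not overlap those of DMSO for 7 members below and 1 above with ICG-001, against 35.9% and 38.9% of all genes (74.8% either way). The same held for 7 below and 2 above with CWP232228, against 34.7% and 38.1% (72.8% either way), and for 7 below and 2 above with YB-0158, against 35.9% and 37.3% (73.2% either way). With CWP232228, GPC4 counts as above on unrounded values only, since its lower library and the higher DMSO library were both at 41.9 CPM. These counts describe genes that were picked with the fold changes known, and nothing is read from them. With correction for GC content and length, the calls were 6 lower and 1 higher with ICG-001, where 3939 and 3857 of 16449 genes were. With CWP232228 they were 5 lower and 3 higher (SDC1, AGRN and HSPG2), where 2427 and 2247 of all genes were. With YB-0158 they were 5 lower and 1 higher, where 3723 and 3635 of all genes were. CSPG4, CSPG5 and COL9A3 were called lower with each compound in both fits. Fitting only the DMSO and ICG-001 libraries gave 4 members called with ICG-001 in place of 8, where 6088 of 15984 genes were called.

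**Figure D4:**
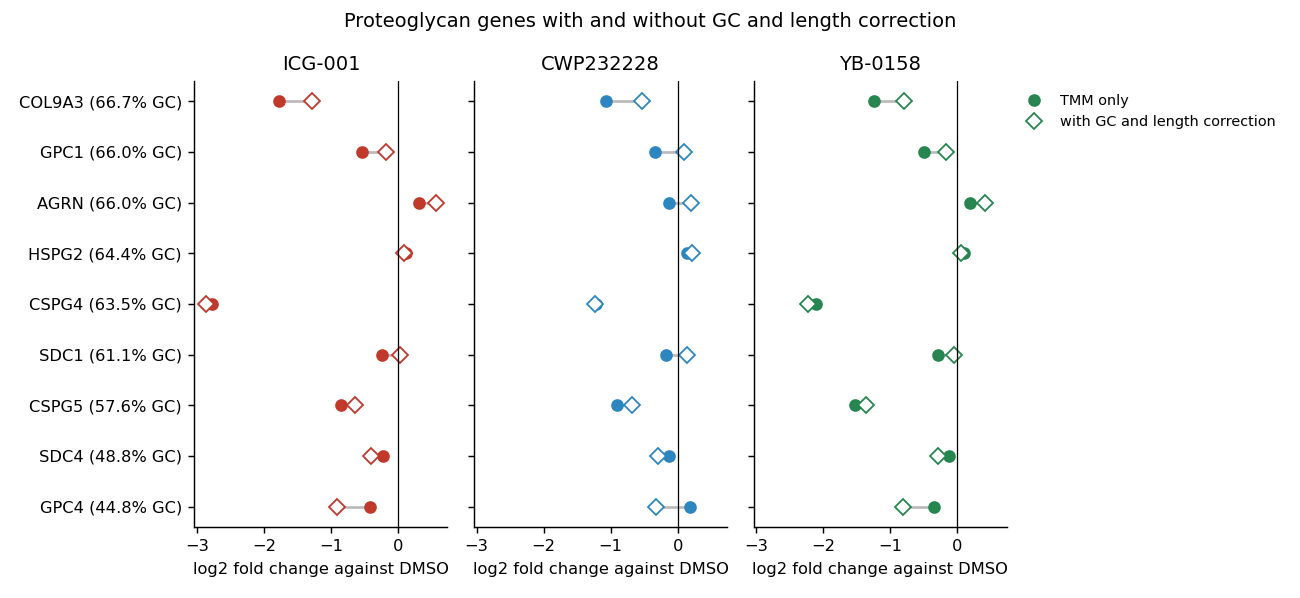
Log2 fold change against DMSO of 9 genes, ordered by GC content, with TMM scaling only (filled) and with an added correction for GC content and length (open), in a panel for each compound. CSPG4 moved by -0.09, -0.01 and -0.12 under the correction with ICG-001, CWP232228 and YB-0158, while GPC4 moved by -0.51 and COL9A3 by 0.55 with CWP232228.

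The 3 compounds were given at different doses, so differences between treated groups belong to a compound at its dose and the 2 cannot be told apart. CSPG4 was higher with CWP232228 than with ICG-001 by 1.55 on the log2 scale (95% interval 1.38 to 1.73). For CSPG4, YB-0158 minus CWP232228 gave -0.88 (-1.05 to -0.70) and YB-0158 minus ICG-001 gave 0.68 (0.50 to 0.85). COL9A3 was higher with CWP232228 than with ICG-001 by 0.71 (0.52 to 0.89) and with YB-0158 than with ICG-001 by 0.53 (0.35 to 0.71). GPC4 was higher with CWP232228 than with ICG-001 by 0.60 (0.33 to 0.87), and the same difference for AGRN was -0.44 (-0.65 to -0.24). For SDC1 the difference between CWP232228 and ICG-001 was 0.07 (-0.09 to 0.22), and for SDC4 0.10 (-0.06 to 0.26); neither was called, which does not show equal levels. In this set of 3 comparisons, 3 members were called higher and 1 lower with CWP232228 than with ICG-001, where 3.65% and 3.17% of all genes were (6.82% either way). With YB-0158 against CWP232228, 0 were called higher and 2 lower (1 and 3 at an unadjusted p under 0.05), where 3.56% and 4.21% of all genes were (7.78% either way). Between YB-0158 and ICG-001, 0 were called by edgeR (2 higher and 1 lower at an unadjusted p under 0.05), where 0.00608% of all genes were called higher and 0% lower. Libraries did not overlap for 5 members above and 1 below between CWP232228 and ICG-001, against 29.5% and 29.2% of all genes (58.6% either way). They did not for 3 above and 3 below between YB-0158 and ICG-001, against 23.7% and 21.4% (45.1% either way), nor for 2 above and 6 below between YB-0158 and CWP232228, against 31.1% and 31.4% (62.5% either way). Nothing is read from these counts either.

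The reads of most members came from 1 main transcript in all libraries, with CSPG5 and SDC1 as exceptions. GPC1-201 took 83.4% to 96.6% of the reads of GPC1, AGRN-201 92.1% to 95.7% of those of AGRN, and COL9A3-215 77.4% to 87.5% of those of COL9A3, while SDC4 and GPC4 have 1 annotated transcript each. SDC1 reads were divided between SDC1-202, with 56.6% to 81.2%, and SDC1-201, which starts further downstream, with 14.1% to 39.3%. The retained-intron transcript AGRN-203 took 2.63% and 3.64% of AGRN reads in DMSO and 4.49% to 5.85% in the treated libraries. In HSPG2, the retained-intron transcript HSPG2-211 took 9.88% of the reads in replicate 2 of DMSO and 1.04% to 1.8% in the other 7 libraries. The deposited estimates place 98.8% of CSPG5 reads on CSPG5-201 in replicate 1 of DMSO and 0% in the other libraries, where CSPG5-203 took 91.4% to 98.1%. Such assignments among overlapping transcripts can change FPKM through the transcript length but leave the summed counts as they are. The FPKM of CSPG5 in the DMSO libraries, 2.04 and 2.54, kept the order of its CPM, 4.24 and 5.13. Those of HSPG2, 63.1 and 88.9, did not keep the order of its CPM.

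Genes whose levels over the 8 libraries were most like those of CSPG4 were found by the root mean square difference of log2 CPM centred on each gene's mean, among 10748 protein-coding genes of mean 2 or more on that scale. Closest was CA9, a hypoxia-responsive carbonic anhydrase, with a difference of 0.23, where the median gene was 1.05 away. The log2 fold changes of CA9 were -2.79, -1.58 and -2.54 with ICG-001, CWP232228 and YB-0158. Next came REG4, a secreted lectin of the gut (0.25), CORO1A, an actin-binding protein (0.30), QPRT, an enzyme of NAD synthesis (0.34), and LARGE2, a glycosyltransferase that extends sugar chains on dystroglycan and other carriers (0.35). The summed reads of QPRT came to 70.1% of the authors' deposited mean, so its level is uncertain. For GPC1 the closest genes were FA2H (0.03), PRKACA (0.04) and PC (0.04), for SDC4 PEX19, PDE4DIP and HNRNPF (0.03 each), and for HSPG2 ZNF142 (0.03), GIGYF1 (0.05) and INTS12 (0.05). The median gene was only 0.28 away from GPC1, 0.21 from SDC4 and 0.22 from HSPG2, so these distances do not compare with those of CSPG4.

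The wider pathway was read from 6 lists with 151 distinct genes outside the members, 99 of them tested. With ICG-001, 36 were higher and 23 lower (59.6% called, beside 48.8% of all genes), with CWP232228 28 higher and 24 lower (52.5%, beside 42.8%), and with YB-0158 29 higher and 19 lower (48.5%, beside 43.8%). The median log2 fold change was 0.20, 0.06 and 0.15 in that order. The 3 comparisons share the DMSO libraries. All adjusted p-values below are from edgeR's quasi-likelihood test over all genes.

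**Figure D5:**
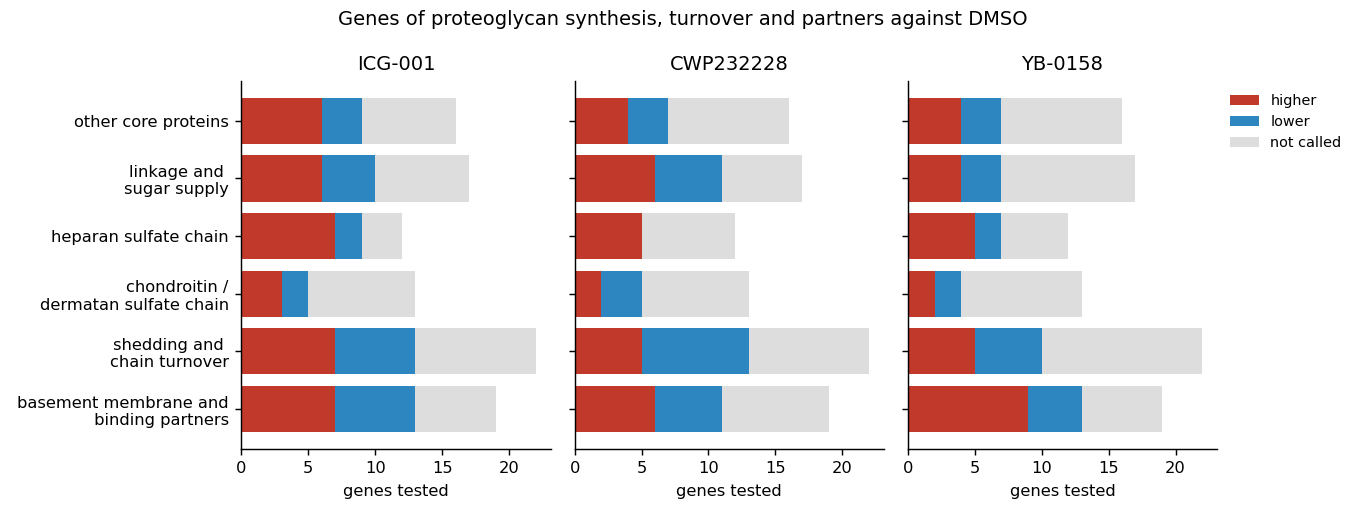
Number of tested genes called higher, called lower or not called against DMSO in 6 gene lists, in a panel for each compound. All 6 lists hold genes called higher and genes not called, and the heparan sulfate list has 0 called lower with CWP232228.

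Among other core proteins, 16 of 36 genes were tested. The 20 others, with decorin, aggrecan and versican among them, had at most 0.293 CPM in any library. With ICG-001 6 rose and 3 fell, and with each of CWP232228 and YB-0158 4 rose and 3 fell. With correction for GC content and length, 8 were higher and 3 lower with ICG-001, 6 and 1 with CWP232228, and 6 and 3 with YB-0158. NRP1, a semaphorin and VEGF coreceptor that can carry a sugar chain, rose from 17.1 ± 2.35 CPM in DMSO to 54.8 ± 1.07 with ICG-001 (log2 fold change 1.68, SE 0.10, adjusted p = 1.7e-05). With YB-0158 NRP1 reached 48.6 ± 1.29 CPM (1.51, adjusted p = 3.0e-05), and with CWP232228 32.4 ± 0.83 CPM (0.92, adjusted p = 8.5e-04). PODXL, the sialomucin podocalyxin, rose by 0.67, 0.47 and 0.74 with ICG-001, CWP232228 and YB-0158. PODXL2, its relative endoglycan, fell by 0.47, 0.57 and 0.51 on the log2 scale, but with the same correction stood at -0.08, -0.12 and -0.14 and was not called. COL18A1, the core of a basement membrane heparan sulfate proteoglycan, fell with CWP232228 (-0.33, SE 0.10, adjusted p = 0.026), with summed reads at 83.3% of the authors' deposited mean, and was not called without replicate 2 of DMSO (-0.29) or of CWP232228 (-0.22), nor with the correction (-0.09).

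The linkage and sugar supply list holds the enzymes that start every chain and the carriers of its building blocks, and all 17 of its genes were tested. With ICG-001 6 rose and 4 fell, with CWP232228 6 and 5, and with YB-0158 4 and 3, and the median log2 fold change was 0.09, 0.20 and 0.08. Corrected for GC content and length, 5 were higher and 4 lower with ICG-001, 1 and 4 with CWP232228, and 5 of each with YB-0158. SLC35B2, which carries the sulfate donor PAPS into the Golgi, fell from 196 ± 4.85 CPM to 129 ± 2.73 with ICG-001 (-0.60, SE 0.08, adjusted p = 4.5e-04), to 142 ± 12.3 with CWP232228 (-0.47) and to 127 ± 1.63 with YB-0158 (-0.63). SLC35B3, the second PAPS carrier, rose by 0.66, 0.57 and 0.57 with ICG-001, CWP232228 and YB-0158, at 9.76 ± 1.3 CPM in DMSO. The sulfate transporter SLC26A2 fell with ICG-001 (-0.72, SE 0.25, adjusted p = 0.043). B3GALT6, which adds a galactose of the linkage, fell with ICG-001 (-0.31), CWP232228 (-0.49) and YB-0158 (-0.27). XYLT2, a xylosyltransferase that starts the chain, also fell with all 3 compounds (-0.47, -0.41 and -0.47 in that order). SLC35D1, a carrier of UDP sugars, rose by 0.61 with ICG-001 and by 0.66 with CWP232228, and BPNT2, a Golgi phosphatase of sulfation, rose by 0.50 with YB-0158. With the correction SLC35D1 stood at -0.06 with both ICG-001 and CWP232228, and BPNT2 at -0.04 with YB-0158. B3GALT6 with CWP232228 (-0.10) and XYLT2 with YB-0158 (-0.18) were then not called. SLC35B3 then stood at 0.32, 0.15 and 0.30, not called with CWP232228, and SLC35B2 at -0.35, -0.21 and -0.41, while SLC26A2 stood at -1.51. Several of these calls rested on single libraries: SLC26A2 stood at -0.22 without replicate 1 of DMSO, and SLC35D1 at 0.29 with ICG-001 and 0.34 with CWP232228 without replicate 2 of DMSO, none of them called. Without the other DMSO replicate in each case, SLC26A2 stood at -1.11 and SLC35D1 at 1.00 and 1.05. Their calls were also lost without replicate 1 (-0.61 for SLC26A2, 0.71 for SLC35D1) or replicate 2 of ICG-001 (-0.83 and 0.51), and that of SLC35D1 with CWP232228 without replicate 1 (0.74) or replicate 2 (0.57) of that compound. Leaving out any one library of the other treated groups also ended each of these calls. BPNT2 was not called without either YB-0158 replicate (0.55 and 0.44) or either CWP232228 replicate (0.50 each) and stood at 0.79 and 0.25 without replicate 1 and 2 of DMSO, and SLC35B3 was not called without replicate 2 of the compound with CWP232228 (0.52) and YB-0158 (0.45).

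Of the enzymes that build and edit heparan sulfate, 12 of 24 were tested. With ICG-001 7 rose and 2 fell, and with YB-0158 5 rose and 2 fell. With CWP232228 5 rose and 0 fell by edgeR (1 lower at an unadjusted p under 0.05, and 0 by DESeq2). Corrected for GC content and length, 5 were higher and 2 lower with ICG-001, 3 and 1 with CWP232228, and 4 and 2 with YB-0158. SULF2, an extracellular enzyme that takes 6-O-sulfates off the chain, rose from 208 ± 15.2 to 330.5 ± 12.7 CPM with YB-0158 (0.67, SE 0.08, adjusted p = 3.6e-04). GLCE, the epimerase that makes iduronic acid, rose by 0.77, 0.69 and 0.65 with ICG-001, CWP232228 and YB-0158, from 29.3 ± 6.54 CPM, and with the correction stood at 0.23, 0.07 and 0.19, not called with CWP232228. HS2ST1, the 2-O-sulfotransferase, rose by 0.79 with ICG-001 and by 0.70 with CWP232228, and with the correction stood at 0.32 and 0.15, the latter not called. HS6ST1, a 6-O-sulfotransferase, fell by 0.35 with ICG-001 (-0.20 with the correction) and by 0.45 with YB-0158. NDST1, the main N-sulfotransferase, fell with ICG-001 (-0.40), and HS3ST1, a 3-O-sulfotransferase, fell with YB-0158 (-0.22). HS3ST1 with YB-0158 stood at 0.0012 after the correction for GC content and length, and was not called without any one of the 6 treated libraries (-0.23 to -0.21). Without replicate 2 of ICG-001, HS2ST1 (0.68) and HS6ST1 (-0.31) were not called with that compound, and without replicate 2 of CWP232228 neither HS2ST1 (0.57) nor GLCE (0.65) was. Without replicate 2 of DMSO, HS2ST1 stood at 0.52 with ICG-001 and 0.43 with CWP232228, and GLCE at 0.43 with YB-0158.

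Chondroitin and dermatan sulfate enzymes had 13 of 16 genes tested, and most were not called. With ICG-001 3 rose and 2 fell, with CWP232228 2 rose and 3 fell, and with YB-0158 2 rose and 2 fell. Corrected for GC content and length, 5 were higher and 1 lower with ICG-001, 3 and 1 with CWP232228, and 4 and 1 with YB-0158. CSGALNACT2, which starts the chondroitin chain, rose from 5.62 ± 0.404 CPM to 13.4 ± 0.679 with ICG-001 (1.25, SE 0.15, adjusted p = 3.3e-04), to 9.74 ± 1.81 with CWP232228 (0.79) and to 11.6 ± 0.98 with YB-0158 (1.05). With the correction CSGALNACT2 stood at 0.67, 0.09 and 0.59, not called with CWP232228. CHST3, a chondroitin 6-O-sulfotransferase, rose by 0.58 with ICG-001 and by 0.46 with CWP232228. CHST14, the dermatan 4-O-sulfotransferase, fell by 0.57 with ICG-001 and by 0.54 with YB-0158. CHST12, a chondroitin 4-O-sulfotransferase, fell with ICG-001 (-0.35), CWP232228 (-0.45) and YB-0158 (-0.34), and stood at 0.15, 0.11 and 0.12 with the correction for GC content and length. CHPF, the chondroitin polymerizing factor, fell with CWP232228 (-0.59, SE 0.11, adjusted p = 0.0048), and was not called with the correction (-0.14). Without replicate 2 of CWP232228, CHPF (-0.50), CHST3 (0.47) and CHST12 (-0.37) were not called with that compound. CHST12 was also not called with ICG-001 without replicate 1 (-0.40) or 2 (-0.28) of ICG-001, nor with YB-0158 without replicate 2 of DMSO (-0.32) or of YB-0158 (-0.24).

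Genes of shedding and chain breakdown had 22 of 27 members tested. With ICG-001 7 rose and 6 fell, with CWP232228 5 rose and 8 fell, and with YB-0158 5 of each direction were called. Corrected for GC content and length, 8 were higher and 7 lower with ICG-001, 6 and 5 with CWP232228, and 7 and 6 with YB-0158. IDS, the lysosomal iduronate-2-sulfatase, rose from 53.7 ± 9.54 CPM to 148 ± 6.76 with ICG-001 (1.46, SE 0.11, adjusted p = 4.6e-05), to 100.4 ± 2.37 with CWP232228 (0.90) and to 156 ± 0.0481 with YB-0158 (1.53). ARSB, which removes 4-sulfates from chondroitin and dermatan sulfate, rose by 1.19, 0.77 and 1.11 with ICG-001, CWP232228 and YB-0158. MMP14, a membrane metalloproteinase that can shed syndecan-1, fell by 1.17, 0.59 and 0.94 on the log2 scale in the same order. HYAL2, a hyaluronidase, fell by 0.88 with ICG-001 and by 0.75 with YB-0158, and NAGLU, a lysosomal heparan sulfate exoglycosidase, fell by 0.55 with CWP232228. With the correction, NAGLU (-0.09) and MMP14 (-0.28) were not called with CWP232228, ARSB with that compound stood at 0.46, and HYAL2 stood at -0.49 with ICG-001 and -0.38 with YB-0158. With CWP232228, MMP14 was not called without replicate 1 (-0.49) and ARSB was not called without replicate 2 (0.71) of that compound.

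Among basement membrane genes and binding partners, 19 of 31 were tested, and 7 rose and 6 fell with ICG-001, 6 and 5 with CWP232228, and 9 and 4 with YB-0158. Corrected for GC content and length, 8 were higher and 3 lower with ICG-001, 6 and 3 with CWP232228, and 8 and 3 with YB-0158. LAMA3, the alpha chain of laminin-332, rose from 26.4 ± 1.17 CPM to 72.8 ± 3.25 with ICG-001 (1.46, SE 0.08, adjusted p = 1.2e-05), to 49.3 ± 1.82 with CWP232228 (0.90) and to 75 ± 1.83 with YB-0158 (1.50). FGFR4, a fibroblast growth factor receptor, fell from 152 ± 10.3 CPM to 49.5 ± 0.31 with ICG-001 (-1.62, SE 0.08, adjusted p = 7.4e-06), to 72.4 ± 4.18 with CWP232228 (-1.07) and to 56.4 ± 1.07 with YB-0158 (-1.43). FGFR3 fell with YB-0158 (-0.35), and FGFR2 rose with CWP232228 (0.60, SE 0.10, adjusted p = 0.0026). LAMB2, a laminin beta chain, fell with ICG-001 (-0.48). GIPC1, an adaptor that binds syndecan-4, fell with CWP232228 (-0.55) and stood at 0.03 with the correction. With it LAMB2 (-0.17) and FGFR3 (-0.08) were not called, and with CWP232228 LAMA3 stood at 0.52 and FGFR4 at -0.57. LAMB2 with ICG-001 was not called without replicate 2 of ICG-001 (-0.46), nor FGFR3 with YB-0158 without replicate 1 (-0.38) or 2 (-0.33) of YB-0158.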

How the data were processed

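RNA from 8 HT29 libraries was sequenced after TruSeq RNA v2 preparation, a kit that does not mark strand, per the labels. Of tools and builds, fastp, Salmon 1.3.0, DESeq2 and GRCh38 are listed per the submitters' processing notes, without roles. The deposited per-library files hold an estimated count, a TPM and an effective length per transcript, as made by the authors with a transcript quantifier, per the file headers. The authors' deposited tables hold mean normalized counts (a signal), log2 fold changes, p-values and FPKM per gene, and their p-values and the TPM were used in no test. Counts of 204677 of 228754 transcripts (89.5%) matched GENCODE 29 by identifier, were summed over 58193 genes and rounded. Members came to between 99.4% and 101.4% of the authors' deposited means.

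Tests used edgeR 4.0.16 in R 4.3.3 (TMM, filterByExpr, robust quasi-likelihood) with all 8 libraries in 1 model of 4 groups, 4 residual degrees of freedom, and Benjamini-Hochberg adjustment over 16449 genes. The fit was tested on simulated counts with 1 spread for all genes and groups, no GC trend and changes in 200 genes. That test does not cover the wider spread of DMSO, the GC trend or the many genes called here. Levels are CPM as mean ± SD over 2 libraries. Alternatives used DESeq2 1.42.0, limma 3.58.1, other scaling, filters and offsets, a replicate block and leaving out libraries. The members, lists and rules were chosen with earlier results of these data known. Named list genes are up to 2 called genes with the largest rise and 2 with the largest fall per list and compound, whose mean log2 CPM was 2 or more. A gene named with 1 compound may therefore have been called with another as well. SDC3 is given besides these. Results for some genes that this rule or a marker list would name are not reported here.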

Additional observations from a re-analysis of the deposited data

How the results depend on the processing

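Of 513 refits of single members, 420 kept direction and call, and CSPG4, CSPG5 and COL9A3 kept both in all 19 alternatives with each compound. Leaving out 1 library gave 4 to 8 members called with ICG-001 (8 with all), 3 to 5 with CWP232228 (4) and 4 to 6 with YB-0158 (6). It gave 38 to 70 pathway genes with ICG-001 (59), 20 to 62 with CWP232228 (52) and 30 to 59 with YB-0158 (48), and 5140 to 9412, 2747 to 8798 and 4237 to 8846 of all genes. The lowest pathway counts came without replicate 2 of each compound, and HSPG2 with ICG-001 ranged from -0.025 to 0.24, below 0 without replicate 1 of ICG-001. With only the 2 groups compared, 4 members and 6088 of all genes were called with ICG-001, and 32 pathway genes and 4144 of all genes with CWP232228. For CWP232228, limma on log2(FPKM + 0.1) called 29 pathway genes and 3699 of all genes, limma on log2(FPKM + 1) 31 and 3794, and the effective length offset 31 and 3400. GC and length correction gave 8 members and 4674 of all genes for CWP232228.

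Deviations of same-numbered libraries correlated from -0.08 to 0.18 over the 6 pairs of groups. They were taken over all genes tested, and noise in genes with few reads weakens a correlation. Whether replicate numbers mark pairs is therefore not decided. Replicate 1 minus replicate 2 followed GC content with rho at 0.78 (ICG-001), 0.58 (CWP232228) and 0.55 (YB-0158), and at -0.59 in DMSO. The replicate block alone called 7478, 6313 and 6645 of all genes with ICG-001, CWP232228 and YB-0158, against 8025, 7042 and 7209. The replicate block with GC and length correction gave 7 members and 4294 of all genes for CWP232228.

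Signs turned with GC and length correction, without and with the replicate block, for SDC1 with ICG-001 (0.031 and 0.031) and CWP232228 (0.15 and 0.15), and, with CWP232228, for GPC1 (0.10 and 0.10), GPC4 (-0.32 and -0.33), AGRN (0.20 and 0.20) and GIPC1 (0.034 and 0.034). They also turned for SLC35D1 with ICG-001 (-0.062 and -0.064) and CWP232228 (-0.064 and -0.066), BPNT2 with YB-0158 (-0.042 and -0.041), HS3ST1 with YB-0158 (0.00119 and 0.00123), and CHST12 with ICG-001 (0.15 and 0.15), CWP232228 (0.11 and 0.11) and YB-0158 (0.12 and 0.11). Signs turned with limma on log2(FPKM + 0.1), log2(FPKM + 1) and the effective length offset for AGRN with CWP232228 (0.19, 0.19 and 0.18) and for HSPG2 with ICG-001 (-0.14, -0.14 and -0.17), CWP232228 (-0.061, -0.060 and -0.094) and YB-0158 (-0.15, -0.15 and -0.18). The cause was not tested. Depth limits CSPG5, with 831 reads in all.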

Other observations

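LUM, which encodes the small keratan sulfate proteoglycan lumican and stands in both the core protein and the fibroblast marker list, measured 0.765 and 0.707 CPM in DMSO, 3.05 and 3.16 with ICG-001, 2.7 and 2.97 with CWP232228, and 3.29 and 3.79 with YB-0158, a gene chosen after its values were seen. COL1A1, the other tested fibroblast marker, measured 4.21 and 4.42 CPM in DMSO and 1.12 to 2.58 CPM in the treated libraries. GPC3, a glypican of fetal tissue and liver tumours, likewise chosen after its values were seen, measured 3.55 and 4.88 CPM in DMSO, 1.08 and 1.11 with ICG-001, 2.44 and 3.29 with CWP232228, and 1.58 and 1.05 with YB-0158. The summed reads of GPC3 came to 78.2% and those of COL1A1 to 87.8% of the authors' deposited means, so their levels are uncertain. The sheddases ADAM10 and ADAM17, chosen in the same way, stood higher with ICG-001 by 0.71 and 0.36 on the log2 scale. These values carry no correction for GC content and length, and ADAM10 was at 127 and 88.9 CPM in the 2 DMSO libraries.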
